A study of Mus musculus with 44 samples.

Results

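The regions described here are 220 stretches of open chromatin that, among 8 DMSO-treated ATAC-seq libraries of mouse cortical neurons at 7 days in vitro (DIV7), reached the top of the peak list only after 10 min of depolarization. In each of the 8 libraries the 75000 autosomal intervals with the highest −log10 p were kept, and these lists were merged into 95192 regions. A library held a region when 1 of its 75000 intervals overlapped it. The 220 regions, 0.231% of the merged regions, were held by both 10 min depolarized libraries and by none of the other 6, which were depolarized for 30 min or left unstimulated at 10 or 30 min. The same kind of rule gave 1625 regions for 30 min of depolarization, 650 for the 10 min unstimulated libraries and 590 for the 30 min unstimulated ones. The DMSO libraries chose the regions, so their values are a description, and tests were run only in the 36 other libraries.

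The study profiled primary neurons from embryonic mouse cortex to examine the BAF chromatin remodeler during synaptic activity. It deposited 44 libraries in 22 groups of 2. Tetrodotoxin and D-AP5, which block sodium channels and NMDA receptors, kept every culture silent overnight, and depolarized wells then received 50 mM KCl. The WT neurons at DIV7 were given 0.1% DMSO or 100 nM FHT1015, which blocks the ATPases of BAF, for 10 or 30 min, with KCl for the same time or without it. A second DIV7 set carried a non-targeting guide RNA (NT) or a guide against Arid2 (Arid2KO), a subunit of the PBAF form of the complex, and was unstimulated or depolarized for 30 min. At DIV18 the neurons carried a non-targeting guide, a Smarcc2 knockout with vector, or that knockout with an addback of WT Smarcc2, Smarcc2(S586A) or Smarcc2(S586E), each unstimulated or depolarized for 30 min. S586A puts alanine, which cannot be phosphorylated, and S586E glutamate in place of a serine of this core BAF subunit. Depolarization at 10 min was therefore measured only with DMSO and with FHT1015. The labels count each embryo's cortex as a replicate but tie no library to an embryo, so p-values measure the spread between libraries, which may be technical. The knockouts were made by infecting neurons with guide RNAs, and no file used here measures how much of the target protein was left.

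ATAC-seq uses a transposase to cut DNA that nucleosomes leave exposed, and its peaks mark promoters, enhancers and other regulatory DNA. Raised extracellular potassium depolarizes neurons and opens voltage-gated calcium channels. Calcium then reaches kinases and transcription factors such as CREB, SRF and MEF2, which switch on early genes such as Fos within minutes. BAF complexes slide or evict nucleosomes with the ATPases SMARCA4 and SMARCA2, and factors such as AP-1 can recruit them to enhancers.

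Sequence could be read for the few regions that overlap an annotated gene start. A window of 250 bases before to 50 bases after a gene start lay in or over 8 of the 220 regions (3.64%), against 12.3% of all merged regions. The windows are from RefSeq (GRCm38.p6, the same assembly as mm10). The 5 shown are those of the Rasgrp1 region, which was higher with 10 min of KCl under FHT1015 in a call that many alternatives lost, of 2 regions that hold the whole window of a protein-coding gene (Elmo2 and Ube2u), and of 2 regions with a match to the SP motif. Capitals mark E-boxes (CANNTG) and SP motifs (GGGCGG), searched on both strands, and overlapping matches were counted separately.
Gm13982 window in the Rasgrp1 region: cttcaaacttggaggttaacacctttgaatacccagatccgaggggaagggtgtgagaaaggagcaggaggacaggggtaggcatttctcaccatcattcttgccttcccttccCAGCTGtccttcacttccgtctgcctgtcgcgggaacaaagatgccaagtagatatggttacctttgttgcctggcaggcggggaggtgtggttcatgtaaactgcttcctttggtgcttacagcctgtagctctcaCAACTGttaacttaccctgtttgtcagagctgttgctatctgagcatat
Elmo2 window in the Elmo2 region: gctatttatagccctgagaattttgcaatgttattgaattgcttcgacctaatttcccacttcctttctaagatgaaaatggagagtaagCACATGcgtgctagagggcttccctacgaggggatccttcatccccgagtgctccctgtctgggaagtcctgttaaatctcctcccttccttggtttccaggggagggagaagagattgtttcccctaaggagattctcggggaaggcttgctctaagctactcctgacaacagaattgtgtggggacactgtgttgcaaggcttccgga
Ube2u window in the Ube2u region: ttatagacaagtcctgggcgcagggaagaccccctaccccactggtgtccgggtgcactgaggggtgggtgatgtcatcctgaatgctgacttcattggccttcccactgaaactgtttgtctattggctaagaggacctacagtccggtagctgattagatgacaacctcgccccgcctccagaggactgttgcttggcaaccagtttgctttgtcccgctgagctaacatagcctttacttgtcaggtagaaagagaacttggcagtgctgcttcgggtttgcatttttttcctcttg
Gm13001 window in the Zbtb40 region: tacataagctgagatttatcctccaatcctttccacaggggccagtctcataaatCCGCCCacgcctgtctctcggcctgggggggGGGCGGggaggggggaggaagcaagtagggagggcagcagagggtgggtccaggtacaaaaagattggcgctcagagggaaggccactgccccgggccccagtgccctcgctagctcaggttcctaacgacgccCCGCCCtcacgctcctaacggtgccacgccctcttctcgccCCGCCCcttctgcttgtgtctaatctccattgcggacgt
Shox2 window in the Shox2 region: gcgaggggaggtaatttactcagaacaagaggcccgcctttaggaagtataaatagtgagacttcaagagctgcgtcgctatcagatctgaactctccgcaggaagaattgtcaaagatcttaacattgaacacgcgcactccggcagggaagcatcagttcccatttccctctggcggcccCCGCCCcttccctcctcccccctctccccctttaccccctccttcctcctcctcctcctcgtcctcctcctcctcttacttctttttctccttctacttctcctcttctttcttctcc
The Gm13982 window is at chr2:117417648-117417947 on the minus strand, with 208 of its 300 bases in the region and 2 E-boxes. The Elmo2 window is at chr2:165320777-165321076 on the minus strand, wholly in the region, with 1 E-box. The Ube2u window is at chr4:100478617-100478916 on the plus strand, wholly in the region, and matched neither motif. The Gm13001 window is at chr4:137118109-137118408 on the minus strand, with 248 bases in the region and 4 SP motifs. The Shox2 window is at chr3:66981722-66982021 on the minus strand, with 196 bases in the region and 1 SP motif. None of the windows in the 8 regions held the AP-1 motif (TGANTCA), the CRE (TGACGTCA) or the CTCF core, read on both strands. Over all 31396 windows of the annotation, 7.84% held the AP-1 motif, 1.83% the CRE, 2.47% the CTCF core, 72.2% an E-box and 36.0% the SP motif. The sequence of the other 212 regions was not read, so these matches describe only the regions at gene starts.

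In the libraries that chose them, the regions sat just inside the cutoff at 10 min of KCl and just outside it elsewhere. Their ranks ran from 49360 to 74957, with a median of 68378.5, in the first 10 min depolarized library, and from 50565 to 74970, with a median of 69669.5, in the second. Median ranks were 90220.5 and 94714.5 in the 10 min unstimulated libraries. They were 93510.5 and 92111 at 30 min of KCl, and 103210 and 102940 in the 30 min unstimulated libraries. The regions were thus present under every condition, and 212 of 220 (96.4%) had an interval of some rank in all 8 libraries. No region lacked an interval in all 6 of the other libraries, and 4 regions lay outside the top 100000 in each of them. The best rank among the other 6 libraries was a median of 1.13 times the worse rank of the chosen pair, and it was over 1.1 times that rank in 140 regions (63.6%). The library with that best rank was 10 min unstimulated in 95 regions, 30 min depolarized in 82 and 30 min unstimulated in 43. The authors' fold enrichment, the ratio of the signal at a summit to the library's background, had a median of 7.90 at the regions in both chosen libraries and of 5.49 to 6.89 in the other 6. Fold enrichment at rank 75000 also differed, at 7.22 and 7.33 in the chosen pair and 6.80 to 8.29 in the other 6. These medians are therefore not on the same scale.

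**Figure D1:**
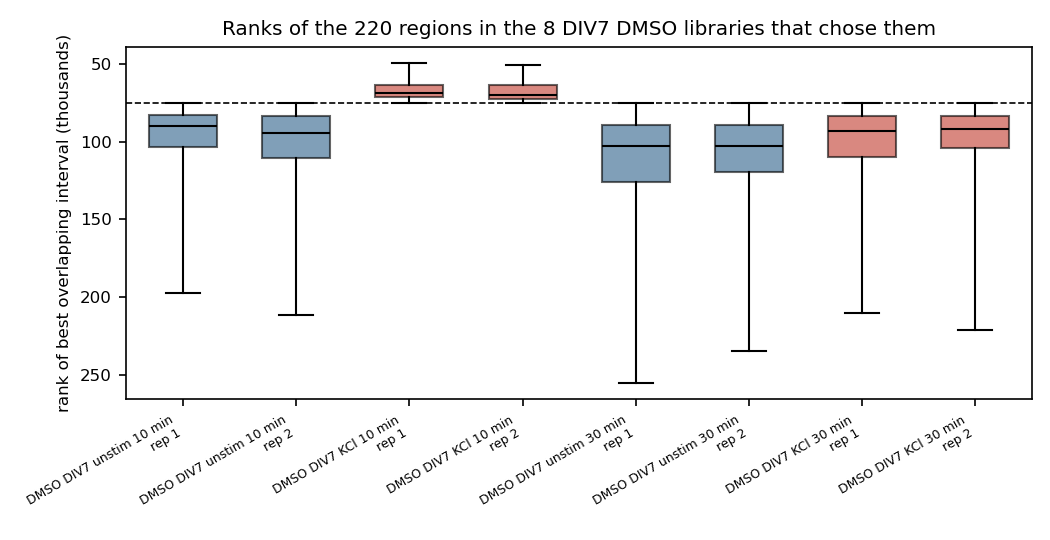
Rank of the best interval over each of the 220 regions in the 8 DMSO libraries, with rank 1 as the strongest and the axis reversed so that stronger is up. Boxes span the quartiles with the median line, whiskers reach the lowest and highest rank, and the dashed line is the cutoff of 75000. The pair of 10 min KCl libraries lies above the line and the other 6 below it because the rule placed them there, and regions with no interval in a library (up to 5) are left out of its box.

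At the edge of the rule, the Gm15881, Unc5d and Spon1 regions were nearest inside, with worse ranks of 74970, 74961 and 74957 in the chosen pair. Just outside were the Izumo1r region, which missed by 13 ranks, the Gm12695 region, by 18, and the Map3k7 region, by 40. In all, 83 regions missed membership by at most 1000 ranks. Ties were common, with 995 to 1574 intervals of equal −log10 p at rank 75000 in the DMSO libraries. Leaving out 1 of the chosen libraries raised the number of regions from 220 to 902 or 1036, and leaving out a 30 min depolarized one gave 338 or 368.

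The 10 regions with the highest scores at 10 min in DMSO were named for their nearest genes, a label of position, since no measurement used here ties a region to a gene. Ranks were turned into scores by dividing 133009, the number of intervals in the shortest of the 44 lists, by the rank of the best interval over the region and taking the log2. A rank beyond 133009, or no interval, scored 0. Nearest to these regions were Dlgap1, which encodes a postsynaptic scaffold, Magi1, a junctional scaffold, Mapk15, an atypical MAP kinase, Rbm20, a splicing factor, Pcgf5, a Polycomb subunit, Sec61b, a subunit of the ER translocon, Atg14, an autophagy factor, Pik3cg, a catalytic subunit of PI 3-kinase, Zpld1 and Zfp319. The Dlgap1 region (chr17:70826095-70826636, 4681 bp from the gene) scored 1.27 and 1.39 at 10 min of KCl. Its scores were 0.68 and 0.27 in the 10 min unstimulated, 0.68 and 0.44 in the 30 min depolarized, and 0.00 and 0.15 in the 30 min unstimulated libraries. The gap between the chosen pair and the best of the others was widest in rank for the Zfp319 region among these 10 (1.64 times), which lies inside its gene.

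The regions lay mostly away from gene ends. At a gene end, within 1 kb of either end of a protein-coding gene, were 12 regions (5.45%, against 15.6% of all merged regions and 4.62% to 6.71% of the 3 sets that the same rule gave for the other DMSO groups). Another 154 lay within 100 kb, and 54 (24.5%) farther away. Inside a gene body were 98 regions (44.5%), against 57.8% of all merged regions and 52.0% to 54.9% of those 3 sets. The median distance to the nearest gene end was 34814 bp, against 23871 bp for all merged regions and 31325 to 35637.5 bp for the 3 sets. The median width was 463.5 bp against 720 bp, and the 3 sets had medians of 456 to 468.5 bp. Arpp21, which encodes a cAMP-regulated phosphoprotein of neurons, was the nearest gene of 3 regions, and Bod1l, Cables1, Klhl29, Niban2 and Rbm20 of 2 each. None of the regions overlapped an annotated miRNA hairpin.

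The other 36 libraries held between 16.4% and 44.1% of the 220 regions, and the highest shares were in the FHT1015-treated neurons depolarized for 10 min. Those 2 libraries held 44.1% and 43.6% of the regions. The 10 min unstimulated FHT1015 libraries held 28.2% and 29.1%, the 30 min unstimulated ones 21.4% and 23.6%, and the 30 min depolarized ones 21.8% and 19.1%. The 10 min depolarized pair therefore lay above the other 6 FHT1015 libraries without overlap. The same ordering held for all merged regions, of which the 10 min depolarized pair held 74.1% and 72.1%, the 10 min unstimulated pair 67.9% and 66.7%, and the remaining 4 libraries 51.9% to 65.2%. The number of autosomal intervals moved with these shares. It was 217724 and 199914 in the 10 min depolarized FHT1015 libraries, 194928 and 172399 in the 10 min unstimulated ones, and 143439 to 178688 in the 4 libraries at 30 min. Their part in the shares was not tested. In bulk cultures of mixed cells, fewer cells of a type and less open DNA per cell cannot be told apart.

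**Figure D2:**
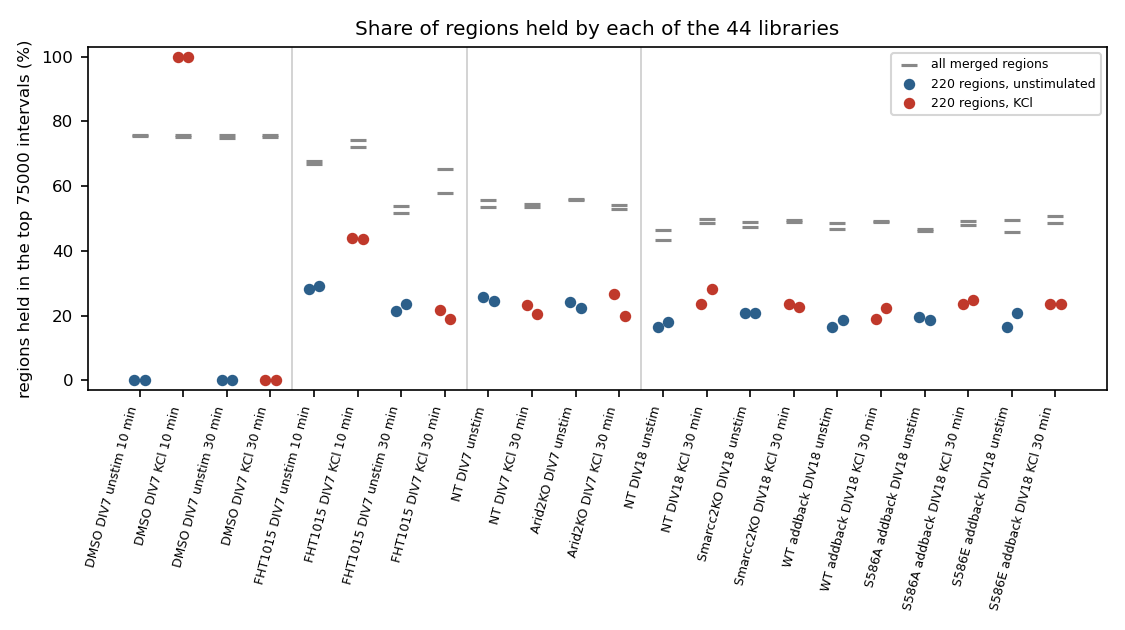
Share of the 220 regions held in the top 75000 intervals of each of the 44 libraries, in percent, by group, with unstimulated libraries in blue and KCl libraries in red. Grey dashes give the same share for all 95192 merged regions. The DMSO values of 0 and 100 come from the rule, and among the other libraries the pair with FHT1015 and 10 min of KCl stands highest at 44.1% and 43.6%.

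Of the 220 regions, 72 were held by both FHT1015 libraries depolarized for 10 min, 49 by 1 of them and 99 by neither. Held by no FHT1015 library were 73 regions, and 13 were held by all 8. Applied to the FHT1015 libraries, the same rule picked 2215 merged regions, and 23 of the 220 were among them, 10.5% of the regions and 1.04% of that list. Of all merged regions 2.33% were on that list, of the 10 min unstimulated set 3.23%, of the 30 min unstimulated set 1.53% and of the 30 min depolarized set 0.246%. Under FHT1015 the scores of both 10 min depolarized libraries exceeded those of both 10 min unstimulated ones in 102 regions (46.4%, against 35.3% of all merged regions). They exceeded those of all 6 other FHT1015 libraries in 82 regions (37.3%). That share was 21% over all merged regions and 28.9% over the 650 regions held only by the 10 min unstimulated DMSO libraries.

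With 10 min of KCl under FHT1015, 33 regions rose and 2 fell against 10 min unstimulated neurons with the drug (limma, Benjamini-Hochberg adjusted p under 0.05 over 93573 regions). Of the 220 regions 218 were tested. The background was 5.05% called higher and 1.63% called lower over all tested regions, against 15.1% and 0.917% of the tested regions of the set. The median difference in score was 0.23 over the set and 0.07 over all tested regions. The 650 regions held only at 10 min unstimulated in DMSO, which shared the time point but not the stimulus, gave 12.7% higher and 2.67% lower with a median of 0.12. The 1625 regions of 30 min of depolarization gave 5.67% higher, and the 590 of 30 min unstimulated gave 4.99%. The set's share of higher calls was thus the largest of the 4, and next to it stood that of the 10 min unstimulated set; the difference between sets was not tested.

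Of the regions that passed, those with the largest rises had scores near 0 in unstimulated FHT1015 neurons and about 1 after 10 min of KCl. Larger differences that missed the threshold were those at H2az1 (5.02), Klf7 (1.53) and Serpina10 (1.44), with limma adjusted p-values of 0.0792, 0.116 and 0.254. The Sec61b region (chr4:47702381-47702809, 219147 bp from the gene) scored 1.42 and 1.27 with KCl at 10 min, 0.08 and 0.00 unstimulated at 10 min, and 0.00 in all 4 libraries at 30 min. The pairs did not overlap, and the difference was 1.31 ± 0.09 (SE of the fit, n = 2 libraries a group, limma adjusted p = 0.00692). In the Arid2 set and at DIV18 this region scored 0.00 in all libraries but 1, an NT library with KCl at 0.15.

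The Mettl21a region (chr1:64633116-64633788) lies 12649 bp from Mettl21a, which encodes a lysine methyltransferase of HSP70 chaperones, and 28567 bp from Creb1, the gene of the activity-regulated factor CREB. It scored 1.23 and 0.92 with KCl at 10 min under FHT1015, 0.00 and 0.02 unstimulated at 10 min, and 0.00 in the 4 libraries at 30 min. It rose by 1.06 ± 0.11 (SE, n = 2, limma adjusted p = 0.00969).

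The Ttr region, 1501 bp from the gene of the thyroid hormone carrier transthyretin, scored 0.95 and 1.17 with KCl at 10 min and 0.00 in the other 6 FHT1015 libraries. The difference was 1.06 ± 0.09 (SE, n = 2, limma adjusted p = 0.0074). Like the Sec61b region it had no score above 0 at DIV18.

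The Pik3cg, Tbl1xr1, Pcgf5, Ccser1, Galnt17, Elavl4 and Bnc2 regions rose by 1.00, 1.00, 0.97, 0.92, 0.90, 0.89 and 0.81, with limma adjusted p-values from 0.00692 to 0.0222. Tbl1xr1 encodes a corepressor subunit, Galnt17 a protein of the glycosyltransferase family, Bnc2 a zinc finger protein and Elavl4 the neuronal RNA-binding protein HuD. For all 7, both 10 min KCl libraries lay above the other 6 FHT1015 libraries. The Tbl1xr1 region alone among them also had scores at 30 min of KCl, 0.52 and 0.49. Among the 33 regions that rose, differences ran from 0.34 to 1.31 with a median of 0.72, and the Rasgrp1 region, at 0.76, was near that median. In the alternatives tried, the Elavl4 and Tbl1xr1 regions lost the call in 4 each, the Pcgf5 and Pik3cg regions in 3 each and the Bnc2 region in 2.

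The 2 regions that fell were in the genes of the adhesion molecule Dscaml1 and of the matrix protein tenascin-N (Tnn). The Tnn region scored 0.86 and 0.74 unstimulated and 0.36 and 0.41 with KCl at 10 min, a difference of -0.42 ± 0.08 (SE, n = 2, limma adjusted p = 0.0353). The Dscaml1 region scored 0.58 and 0.66 unstimulated and 0.08 and 0.07 with KCl, a difference of -0.55 ± 0.10 (SE, n = 2, limma adjusted p = 0.0333). The Dscaml1 call was lost in 7 alternatives, among them each fit without a 10 min library, and kept in 4, and the Tnn call was lost in 4 and kept in 7. Larger but more variable differences at Fbxo15 (-0.91), Smarca2 (-0.89) and Castor2 (-0.88) did not pass, with limma adjusted p-values of 0.0884, 0.138 and 0.158. Smarca2 encodes 1 of the ATPases that FHT1015 inhibits, and its region lies in the gene, 46175 bp from the nearest end. It scored 1.50 and 1.55 in the 10 min unstimulated FHT1015 libraries, 0.81 and 0.47 with KCl at 10 min, and 2.04 and 2.09 unstimulated at 30 min.

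**Figure D3:**
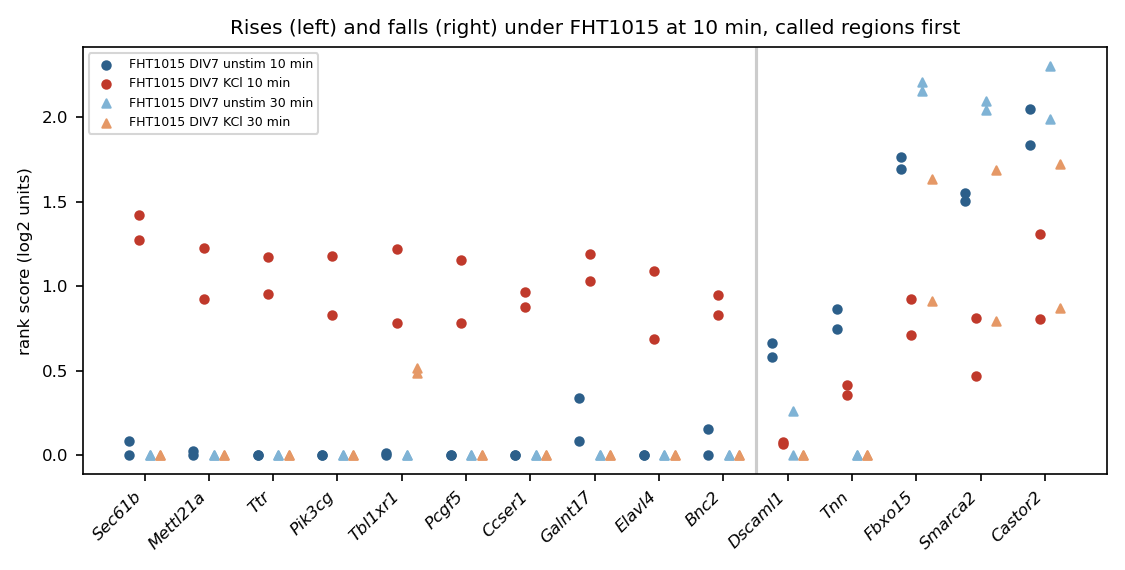
Rank scores in log2 units of 10 regions with a rise and 5 with a fall with 10 min of KCl under FHT1015, taken in order of size with called regions first, with 1 point per library, circles for 10 min and triangles for 30 min, and a score of 0 for a rank beyond 133009 or no interval. The regions on the left lie between 0.69 and 1.42 at 10 min of KCl and mostly at 0 elsewhere, and of the 5 on the right the Dscaml1 and Tnn regions passed the test. Uncalled regions with differences as large, such as H2az1 and Vps36, are not drawn.

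Many of these calls rest on scores at the floor of 0. Of the 33 regions that rose, 17 had both 10 min unstimulated libraries at 0, 11 had 1 at 0 and 5 had neither at 0, and 11 were held in the top 75000 by both KCl libraries. A score of 0 cannot vary below 0, which narrows the spread the test sees. Scored by the best summit within 300 bases around the strongest DMSO summit in place of the whole interval, 24 regions were called higher and 1 lower, and 13 of the 33 were called higher in both ways. When the size of each list was added to the fit, no region of the set was called and 2 of the 93573 were, so the rises cannot be told apart from list size in these 8 libraries. Leaving out unstimulated replicate 1 left 14 higher and 1 lower, and leaving out replicate 2 left 17 and 2.

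Between the 2 depolarized times under FHT1015, 59 regions were higher at 10 min than at 30 min and 2 were lower, of 218 tested (limma). That is 27.1% and 0.917%, against a background of 15.1% higher and 4.54% lower. The 650 regions of 10 min unstimulated DMSO gave 26.3% and 1.1%, nearly the same shares, though DMSO neurons had held those regions without KCl. The median difference was 0.44 over the 220 regions, 0.34 over the 650 and 0.16 over all tested regions. For the regions of 30 min of depolarization the order was turned, with 7.32% higher and 12.2% lower at 10 min. Of the 59 regions, 44 had both 30 min KCl libraries at 0, and with list size in the fit none was called, in the set or outside it. Without 30 min KCl replicate 2, 30 regions were higher and 3 lower. Called in both this comparison and that with unstimulated neurons were 31 regions, but both use the same 10 min KCl libraries.

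At 30 min under FHT1015, 4 regions rose with KCl and 10 fell (1.83% and 4.59% of 218, against a background of 14.3% and 6.47%; limma). The KCl libraries lay above both unstimulated ones in 24 regions (10.9%, against 30.3% of all merged regions). The largest changes that passed were a fall at the Mapk15 region and a rise at the Rec114 region. The Mapk15 region scored 1.63 and 1.08 unstimulated and 0.17 and 0.00 with KCl. Scored at summits, 0 rose and 5 fell, and without KCl replicate 2 the balance turned to 9 higher and 7 lower. Without unstimulated replicate 1 there were 2 and 4, and without unstimulated replicate 2 there were 1 and 6. With list size in the fit there were 2 and 5.

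In the set with and without Arid2, each library held 20.0% to 26.8% of the 220 regions. The NT libraries held 25.9% and 24.5% unstimulated and 23.2% and 20.5% with KCl. The Arid2KO libraries held 24.1% and 22.3% unstimulated and 26.8% and 20.0% with KCl. In NT neurons both KCl libraries were below both unstimulated ones, while in Arid2KO neurons the pairs overlapped. Over all merged regions the NT libraries held 55.8% and 53.7% unstimulated and 54.5% and 53.5% with KCl, which overlap. There the Arid2KO libraries held 56.0% and 55.9% unstimulated and 54.1% and 52.8% with KCl, which do not overlap. The difference between the genotypes in these shares was not tested. The NT lists had 184970 and 178616 intervals unstimulated and 142935 and 142071 with KCl, and their part in the shares was not tested. Held by none of the 8 libraries were 123 regions, and by all 8 were 16.

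No region was called for KCl in NT neurons, for KCl in Arid2KO neurons or for Arid2KO against NT (limma, 139 of the 220 tested; 0 of 81072 regions called, a background of 0%). Unadjusted p was under 0.05 in 15, 14 and 12 of the 139, and in 8013, 8819 and 4865 of all tested regions. The smallest limma adjusted p over all regions was 0.147, 0.101 and 0.757. The KCl libraries lay above both unstimulated ones in 15 regions in NT (6.82%, against 13.7% of all merged regions) and in 17 in Arid2KO (7.73%, against 13.1%). A region with a KCl library at 0 cannot pass this rule, and 57.3% to 63.6% of the 220 scored 0 in a KCl library. The lower shares therefore do not show a weaker response. When only regions held by at least 2 libraries were tested, 3 of 82 were called for KCl in NT, 1 higher and 2 lower, with 488 calls over all regions.

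Wide gaps between pairs of libraries were seen at single regions. The Get1 region (chr16:96156041-96156440), in the gene of a receptor for tail-anchored membrane proteins, scored 0.10 and 0.52 in unstimulated NT neurons and 2.50 and 2.17 with KCl. In Arid2KO it scored 0.32 and 0.54 unstimulated and 2.38 and 1.32 with KCl. The pairs did not overlap in either genotype, with differences of 2.02 ± 0.44 and 1.42 ± 0.44 (SE, n = 2) that missed the threshold (limma adjusted p = 0.249 and 0.34).

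The Mcl1 region (chr3:95662741-95665860) overlaps an end of the gene of an anti-apoptotic BCL2 family protein. It scored 0.46 and 0.45 in NT unstimulated, 1.30 and 1.91 in NT with KCl, 0.00 and 0.66 in Arid2KO unstimulated, and 1.91 and 1.66 in Arid2KO with KCl. The differences were 1.15 ± 0.38 and 1.46 ± 0.38 (SE, n = 2, limma adjusted p = 0.403 and 0.278).

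The Pcdh7 region (chr5:57867763-57869219), in the gene of a protocadherin, had the opposite order. It scored 1.47 and 1.17 in NT unstimulated and 0.00 in both KCl libraries, and 1.35 and 0.80 against 0.25 and 0.00 in Arid2KO. The differences of -1.32 ± 0.27 and -0.95 ± 0.27 also missed the threshold (SE, n = 2, limma adjusted p = 0.232 and 0.309).

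At DIV18 the regions were held at 16.4% to 20.9% in unstimulated libraries and at 19.1% to 28.2% after 30 min of KCl. In NT neurons the share was 16.4% and 18.2% unstimulated and 23.6% and 28.2% with KCl. With the Smarcc2 knockout and vector it was 20.9% and 20.9%, then 23.6% and 22.7%. With the WT addback it was 16.4% and 18.6%, then 19.1% and 22.3%. With S586A it was 19.5% and 18.6%, then 23.6% and 25.0%, and with S586E 16.4% and 20.9%, then 23.6% and 23.6%. In each of the 5 genotypes both KCl libraries lay above both unstimulated ones. Over all merged regions the NT share was 43.5% and 46.5% unstimulated and 48.7% and 49.7% with KCl, so it also was higher with KCl. The same held in the knockout (47.5% and 48.8%, then 48.9% and 49.5%) and with WT addback (46.7% and 48.6%, then 49.0% and 49.4%). It held with S586A as well (46.1% and 46.9%, then 48.0% and 49.3%). With S586E the pairs overlapped over all merged regions (45.9% and 49.7%, then 48.7% and 50.7%). Held by none of the 20 libraries were 124 regions, and by all 20 were 21.

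Depolarization at DIV18 called 10 of 156 tested regions higher and 1 lower in NT neurons (6.41% and 0.641%, against a background of 5.92% and 2.7%; limma). In the Smarcc2 knockout 6 rose and 1 fell (background 2.96% and 1.81%). With WT addback 6 rose and 0 fell (background 3.57% and 2.21%), with S586A 6 and 0 (2.45% and 1.32%), and with S586E 8 and 0 (2.66% and 1.28%). These shares of higher calls, 3.85% to 6.41% of the regions tested, lay near the background in NT, knockout and WT addback. The 650 regions of 10 min unstimulated DMSO went the other way in NT, with 0.683% higher and 9.56% lower, and the 1625 regions of 30 min of depolarization gave 11.8% higher and 0.385% lower. At summits the members called in NT were 5 higher and 2 lower, and over all regions the higher share of the calls changed from 68.7% to 42.2%. Without NT unstimulated replicate 1 the count in NT was 2 higher and 2 lower, and without NT KCl replicate 2 it was 4 and 1. With WT addback, 1 rose and 2 fell without unstimulated replicate 1, and 2 rose and 3 fell without replicate 2, while 3 rose and 0 fell without either KCl library. With S586E, 2 rose and 1 fell without unstimulated replicate 1, and 5 rose and 0 fell without KCl replicate 2.

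The KCl libraries lay above both unstimulated ones in 47 regions in NT (21.4%, against 25.2% of all merged regions). The counts were 37 with knockout (16.8% against 18.9%), 37 with WT addback (16.8% against 21.1%), 44 with S586A (20.0% against 21%) and 40 with S586E (18.2% against 17.2%). A region with a KCl library at 0 cannot pass this rule, and 58.2% to 62.7% of the set scored 0 in a KCl library. Of the 220 regions 156 were tested at DIV18, against 82898 of all 95192. These shares therefore do not show how the response of the set compares with that of all merged regions. Higher in at least 1 genotype by limma were 18 of the 156 tested regions (11.5%, against 9.25% of all tested regions). Higher in at least 2 were 9 (5.77%, against 4.1%), and in all 5 were 3 (1.92%, against 0.642%), the Mcl1, Mettl21a and Pcdh7 regions. For at least 1, at least 2 and all 5 genotypes, the 30 min depolarized set gave 20.3%, 10.1% and 1.83%. The 10 min unstimulated set gave 1.37%, 0.171% and 0%, and the 30 min unstimulated set 0.948%, 0.237% and 0%. The differences between sets were not tested. The genotypes have separate libraries, but the limma fit shares 1 estimate of spread between them.

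**Figure D4:**
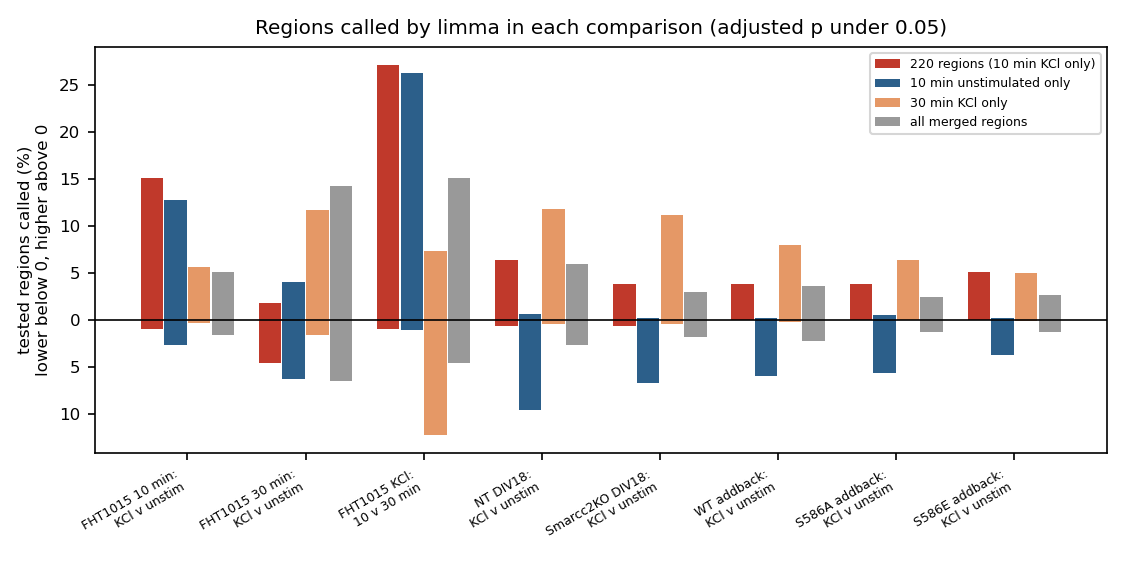
Percent of tested regions called by limma (Benjamini-Hochberg adjusted p under 0.05), with higher calls drawn up and lower calls drawn down from 0, for the 220 regions, for 2 sets chosen by the same rule in other DMSO groups and for all merged regions. Under FHT1015 the 220 regions and the 10 min unstimulated set have similar bars (15.1% and 12.7%, then 27.1% and 26.3%), while at DIV18 the unstimulated set points down.

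The Mcl1 region had the largest rise of the 3. Its scores in NT neurons at DIV18 were 1.06 and 1.51 unstimulated and 3.83 and 4.12 with KCl, a rise of 2.69 ± 0.52 (SE, n = 2, limma adjusted p = 0.0112). The rise was 2.77 in the knockout, 2.10 with WT addback, 3.53 with S586A and 2.32 with S586E, each with an SE of 0.52. In all 5 genotypes the pairs were apart, and at summits the NT rise was 3.28. Without NT unstimulated replicate 1 or KCl replicate 2 the NT rise was 2.47 or 2.55 and missed the threshold. In DMSO this region was just inside the rule, with scores of 1.14 and 0.85 at 10 min of KCl and 0.74 and 0.67 at 30 min, against 0.00, 0.00, 0.00 and 0.35 unstimulated. Under FHT1015 it scored 0.90 and 0.95 with KCl and 0.75 and 0.43 without at 10 min, a difference of 0.33 ± 0.21 that missed the threshold (SE, n = 2, limma adjusted p = 0.352).

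The Mettl21a region rose in NT at DIV18 from 2.72 and 2.83 to 3.85 and 4.12, by 1.21 ± 0.26 (SE, n = 2, limma adjusted p = 0.018). It rose by 1.11 in the knockout, 1.49 with WT addback, 1.90 with S586A and 1.59 with S586E. The NT call was lost without unstimulated replicate 1 (1.15) and without KCl replicate 1 (1.34) or 2 (1.07). It was the only region of the 220 that rose with KCl at 10 min under FHT1015 and in all 5 genotypes at DIV18. In the Arid2 set at DIV7 its scores overlapped, 1.90 and 1.21 unstimulated against 1.77 and 1.29 with KCl in NT neurons. At DIV18 it was lower in the Smarcc2 knockout than in NT neurons, by -1.14 over both states.

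The Pcdh7 region rose in NT from 0.70 and 1.36 to 3.08 and 3.03, by 2.02 ± 0.27 (SE, n = 2, limma adjusted p = 0.0019). The rise was 2.25 in the knockout, 2.10 with WT addback, 1.65 with S586A and 1.08 with S586E. Its order at DIV7 in the Arid2 set was the reverse, though neither difference there passed. In DMSO at 30 min, in libraries that the rule used, its ranks were 76788 and 89802 with KCl and 90332 and 91963 unstimulated. The ranks 89802 and 90332 differ by less than the 1083 to 1574 intervals tied at rank 75000 in these lists. Their order is therefore not read as a difference. Under FHT1015 at 10 min the ranks were 64161 and 67423 with KCl and 109508 and 80108 unstimulated, so stronger with KCl. Under FHT1015 at 30 min the pairs overlapped. No test here compares the 2 ages, whose libraries were fitted separately.

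**Figure D5:**
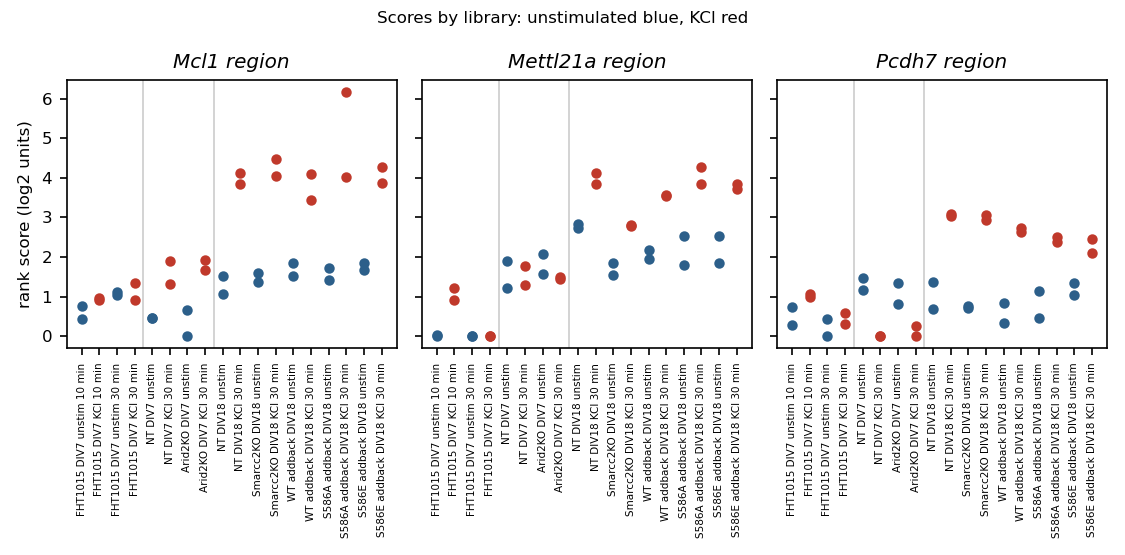
Rank scores in log2 units of the Mcl1, Mettl21a and Pcdh7 regions in the 36 libraries outside DMSO, with 1 point per library, blue for unstimulated and red for KCl, and grey lines between the FHT1015, Arid2 and DIV18 sets. At DIV18 the red points lie above the blue ones in each of the 5 genotypes for all 3 regions. At DIV7 the red points of Pcdh7 lie below the blue ones in the Arid2 set and above them under FHT1015 at 10 min.

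Of the other regions called at DIV18, the Aopep region rose in NT and in the knockout (1.41 and 1.37), the Ackr1 region in the knockout and with S586A (1.17 and 1.37), and the Smarca2 region in NT and with S586E (0.77 and 0.73). The Get1 region rose with WT addback and S586E (1.22 and 1.30), the Ankrd55 region with WT addback and S586A (0.79 and 0.91), and the Mknk1 region, near the gene of a kinase of the translation factor eIF4E, with WT addback and S586E (1.06 and 1.08). For these pairs of genotypes the difference from the genotypes without a call was not tested. The Rgs4 region, 808 bp from a gene of G protein signalling, scored 0.00 and 0.00 in unstimulated NT and 6.07 and 5.46 with KCl. That rise of 5.76 ± 1.55 passed (SE, n = 2, limma adjusted p = 0.0428), but at summits it was 0.11. The call was lost in 7 of 12 alternatives, each fit without an NT library among them. In 1 of the 2 KCl libraries of WT addback, and in 1 of S586E, the score also stood at 5.34. The score takes the best summit of the whole interval that overlaps the region, however far that summit lies.

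The Smarcc2 knockout against NT over both states called 5 regions higher and 6 lower at DIV18 (3.21% and 3.85% of 156, against a background of 4.99% and 5.12%; limma). Higher calls were led by the Tubb2a region (1.17) and lower ones by the Arhgap24 region (-1.37), the Mettl21a region (-1.14) and the Get1 region (-1.08). The balance turned to 5 higher and 4 lower at summits, to 4 and 1 with list size in the fit, and to 6 to 8 higher and 3 to 5 lower when any 1 knockout library was left out. Without NT unstimulated replicate 1 the count was 3 higher and 4 lower.

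Gene-end regions, which include promoters, were few and behaved differently from 1 another. Of the 12, none was called with KCl at 10 min under FHT1015, against 23 higher and 2 lower of 153 tested distal regions and 10 higher of 53 farther ones. With 12 regions, and 5.05% of all tested regions called higher, a count of 0 cannot tell the classes apart. The difference between classes was not tested. In NT neurons at DIV18, 3 of 9 tested gene-end regions rose, against 13.1% of all tested gene-end regions. They were Mcl1, 2210408I21Rik and Rgs4, whose difference at summits was 0.11. The Mapk15, Gm52229, Zfp612, Bcas1, Cyp2d22, H2az1, Shox2 and Vps36 regions were the other gene-end regions with the highest scores in the chosen libraries. The H2az1 region, at the gene of histone variant H2A.Z, scored 6.20 and 6.29 with KCl at 10 min under FHT1015 and 1.34 and 1.11 without, a difference of 5.02 ± 1.33 that missed the threshold (SE, n = 2, limma adjusted p = 0.0792). At summits within the region that difference was -0.03. The Shox2 and Vps36 regions were lower with KCl, by -0.66 and -0.85, and did not pass (limma adjusted p = 0.128 and 0.0519).

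The set held 4 regions whose nearest gene is on a list of genes known for their response to activity. The early activity genes, such as Fos, Arc and Egr1, had 330 merged regions, of which 2 were in the set, at Mcl1 and Plk2 (6.06 per 1000). The late activity genes had 220 merged regions, of which 2 were in the set, at Rgs4 and Rasgrp1 (9.09 per 1000). For all merged regions the rate was 2.31 per 1000, and counts of 2 a list leave these rates imprecise. Of the early genes' regions, 61.5% were held by all 8 DMSO libraries, against 55.8% of all merged regions. With 10 min of KCl under FHT1015, 29 of 322 tested early regions were higher and 3 lower, and 19 of 216 late regions were higher and 2 lower (limma; 5.05% higher and 1.63% lower over all tested regions). At 30 min these counts were 100 and 12 for the early and 49 and 6 for the late regions, against 14.3% and 6.47% over all. In NT neurons at DIV18, 95 of 302 early regions were higher and 7 lower, and 36 of 198 late regions were higher and 3 lower, against 5.92% and 2.7% over all.

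The Rasgrp1 region (chr2:117417338-117417855) lies 74460 bp from the gene of a Ras exchange factor and holds most of the Gm13982 window printed above. It scored 1.03 and 0.92 with KCl at 10 min under FHT1015, 0.00 and 0.44 unstimulated at 10 min, and 0.00, 0.00, 0.00 and 0.02 at 30 min. It rose by 0.76 ± 0.15 (SE, n = 2, limma adjusted p = 0.0403), but the call was lost in 7 alternatives and kept in 5. It was lost without unstimulated replicate 1 and without either KCl library at 10 min. At DIV18 in NT the difference was -0.07. The Plk2 region, 91012 bp from the gene of an activity-induced polo-like kinase, scored 0.37 and 0.05 with KCl at 10 min under FHT1015 and 0.00 in the other 6 libraries, and did not pass (limma adjusted p = 0.253). The lists of CREB pathway genes, BAF subunits, excitatory neuron genes and pan-neuronal genes had 1 region each in the set, at Prkacb, Smarca2, Cux1 and Elavl4.

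The marker genes of the labelled cell type were open in all libraries, with 8 or 9 of 9 autosomal pan-neuronal markers held within 1 kb. Astrocyte markers were also held, 7 to 10 of 10, and progenitor markers, 7 to 10 of 10. Oligodendrocyte markers were held at 4 to 8 of 9, vascular and meningeal ones at 1 to 5 of 10 and microglial ones at 0 to 2 of 10. Open chromatin at a gene does not measure its expression. Over the 44 libraries the lists held 133009 to 276666 autosomal intervals, and the −log10 p at rank 75000 ran from 6.50 to 46.0. Read depth is unknown, since the lists give no counts, so no counting interval was computed.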

How the data were processed

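The 44 ATAC-seq libraries (22 groups of 2) were used as peak lists that the authors deposited on mm10, 1 list per library. The submitters' processing notes name MACS2, bedtools, Bowtie2, Picard, SAMtools, Trim Galore and FastQC, with no versions or roles. The deposited lists give for each summit a fold enrichment, a ratio to 1 background level per library, and the authors' −log10 p and −log10 q. With 1 background per library, fold enrichment and −log10 p rank the intervals alike. These values depend on depth, so the tests used only ranks within a list. Fold enrichment is given for the DMSO libraries only as a description.

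Summits of 1 interval were joined, and autosomal intervals were ranked by their best −log10 p. Rank scores (log2 of 133009 over rank, floor 0) were fitted with limma 3.58.1 (R 4.3.3) with a trend and 1 mean per group, separately for the 8 FHT1015, 8 Arid2 and 20 DIV18 libraries. Benjamini-Hochberg adjustment covered all regions with an interval in at least 2 libraries of a set. The members, the gene lists and the tests were chosen with earlier results of these data known. Named regions are those with the highest scores at 10 min in DMSO, the largest changes under FHT1015, the most calls at 30 min, those nearest to activity genes and those at the edge of the rule. Tables were made with pandas 2.3.3. On simulated data with the spread of the fit, 7% of changes of 1 and 79% of changes of 4 log2 units were recovered for 10 min of KCl under FHT1015 (93573 regions), with 4 of 90 calls false. For KCl in NT neurons at DIV18 (82898 regions) 5% and 68% were recovered, and 8 of 81 calls were false. Each simulation changed 100 regions by each amount, and falls stopped at a score of 0. The data gave 4728 higher and 1524 lower calls in the first comparison, and 4908 and 2241 in the second. With fewer changed regions the adjusted threshold is stricter, so the simulated rates do not carry over to the data. These rates were not computed for the members separately, and many calls on members rest on scores at the floor. The rates therefore do not give the recovery or the share of false calls for the members. Alternatives covered the list length, ties, filter, trend, summits, list size, replicate block and single libraries. Genes, promoter windows and symbols came from RefSeq tables of GRCm38.p6. No genome sequence was used.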

Additional observations from a re-analysis of the deposited data

Results flagged for a closer look

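The share of the 220 regions held with KCl, less that without, took opposite signs between sets in the 7 of 9 comparisons where every KCl library lay on the same side of both unstimulated ones. In NT neurons at DIV7 it fell by 3.41 percentage points with 30 min of KCl. It rose by 15.2 points under FHT1015 at 10 min, by 8.64 points in NT neurons at DIV18 and by 2.27 points in the Smarcc2 knockout with vector. With addbacks at DIV18 it rose by 3.18 points with WT Smarcc2, 5.23 with S586A and 5.00 with S586E. In the other 2 comparisons the libraries overlapped in their share of the 220 regions. FHT1015 at 30 min had a difference of -2.05 points and Arid2KO at DIV7 one of 0.227. Over all merged regions the mean share went from 52.9% to 61.5% and from 55.9% to 53.5% in these 2. The differences between sets, and between the 220 regions and all merged regions, were not tested. The sets differ in time, age, guide and drug at once. Groups of 2 libraries were not searched for outlying samples.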

How the results depend on the processing

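The number of regions depends on the rule: 141 with the top 50000 intervals, 333 with the top 100000, 0 when the other 6 libraries may hold no interval of any rank, 4 when they may hold none in the top 100000, 222 with ties at the cutoff kept (an alternative chosen after seeing the data), and 257 to 1036 when 1 DMSO library was left out. The numbers below are members called in either direction, higher and lower together. Testing only regions held by at least 2 libraries gave 7 in place of 35 for KCl at 10 min under FHT1015, 33 in place of 61 for 10 against 30 min, 3 in place of 0 for NT at DIV7 and 10 in place of 6 for WT addback. Single summits gave 37 for 10 against 30 min, 5 in place of 14 for KCl at 30 min under FHT1015, 7 in place of 11 for NT at DIV18, 3 for WT addback, 5 in place of 8 for S586E and 9 in place of 11 for Smarcc2 knockout against NT, where higher calls then led. List size as a covariate gave 0 for both comparisons with KCl at 10 min, 7 for KCl at 30 min under FHT1015 and 5 for Smarcc2 knockout against NT, again turned. For these, other than the filter, which tests fewer regions, the cause was not tested. Leaving out 1 library gave 15 to 35 for KCl at 10 min under FHT1015, 6 to 18 for KCl at 30 min, 33 to 57 for 10 against 30 min, 4 to 12 for NT, 5 to 7 for the knockout, 3 to 5 for WT addback, 4 to 6 for S586A and 3 to 10 for S586E at DIV18, and 7 to 12 for knockout against NT. Balances turned at 16 (without 30 min KCl replicate 2), at 3 and 5 (without either unstimulated WT addback library) and at 12, 12, 12 and 9 (without each knockout library). The lone library left is assumed to vary like the other groups. The labels do not say whether the replicate numbers pair the libraries. Same-numbered deviations correlated at -0.0137 to 0.0298 under FHT1015, -0.000159 to 0.0235 in the Arid2 set and 0.0148 to 0.162 at DIV18. At DIV18, 9 of 45 correlations were over 0.1, so some pairing there remains possible. The replicate block gave 21 for KCl at 10 min under FHT1015, 56 for 10 against 30 min and 14 for NT at DIV18. Over all alternatives to these counts 124 values stayed within 1.5 times without turning, 33 moved farther and 9 turned. The 124 include comparisons in the Arid2 set where both counts were 0, which have no direction to keep. The alternatives also include a ranking by fold enrichment, which ranks the intervals alike. Of the values for named regions, called or not, 448 stayed on their side of the threshold, 55 lost a call and 2 gained it. The 448 include regions that were not called to begin with, such as H2az1 under FHT1015. They therefore do not give the share of calls that was kept. At DIV18 the share of higher calls over all regions was 61.8% to 68.7% and at summits 37.5% to 48.7%. Read depth is unknown, and 2 libraries a group limit the precision.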
